A study of Homo sapiens with 36 samples.

Results

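The 42 genes described here belong to the program of the transcription factor ATF4: ATF4 and its partner factors, genes of serine, one-carbon and other amino acid synthesis, 12 cytosolic tRNA ligases and a few secreted or growth-limiting targets. They were chosen by symbol, and all 42 were found among the 58302 Ensembl gene IDs of the count tables. RNA had been sequenced in 36 libraries from JEKO, MINO and UPN-1, 3 established lines of mantle cell lymphoma, a B cell cancer. They were grown in RPMI-1640 medium with 20% FBS, L-glutamine and antibiotics. Each line received the vehicle DMSO or GS716054, which the labels call a KDM5 inhibitor (KDM5 enzymes remove methyl groups from lysine 4 of histone H3), and was collected after 24 h or 72 h with 3 biological replicates per group. The labels give no dose and no replacement of medium, and nothing in them says that replicates came from separate cultures, so p-values measure the spread between these libraries. The questions were which of the genes differed between GS716054 and DMSO in each line at each time, and how they changed in DMSO cells from 24 h to 72 h.

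ATF4 is the main effector of the integrated stress response. When amino acids run short, unfolded proteins build up in the endoplasmic reticulum or haem is lacking, sensor kinases phosphorylate the initiation factor eIF2, which lowers general protein synthesis and raises translation of the ATF4 mRNA. ATF4 then pairs with C/EBP proteins at short promoter elements and turns on amino acid synthesis, amino acid import and the enzymes that load amino acids onto tRNAs. Because ATF4 is controlled largely at translation, its mRNA level is not a measure of its protein level.

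The sequence to which ATF4 and C/EBP proteins bind together was searched in the promoters as TGATGNAA on both strands (TTNCATCA on the other), since this composite element is their known joint binding site. RefSeq promoters of build GRCh38.p14, from 250 bases before to 50 after a gene's start, were at hand for 33 of the 42 genes. The motif was present in 12 of these 33 genes (36.4%), against 1217 of 27305 genes with a promoter entry (4.46%). Of the 10 tRNA ligases with an entry, 7 held it, and they are shown with CHAC1, which holds the same letters. Capitals mark the motif, and each run is on the gene's own strand, 5′ to 3′, with at most 30 bases on either side.
TARS1: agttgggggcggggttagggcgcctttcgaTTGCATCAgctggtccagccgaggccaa
GARS1: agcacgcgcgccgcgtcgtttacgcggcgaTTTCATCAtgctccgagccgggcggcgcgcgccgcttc
IARS1: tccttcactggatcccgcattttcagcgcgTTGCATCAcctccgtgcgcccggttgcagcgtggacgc
CARS1: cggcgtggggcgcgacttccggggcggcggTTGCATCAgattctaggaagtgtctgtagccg
MARS1: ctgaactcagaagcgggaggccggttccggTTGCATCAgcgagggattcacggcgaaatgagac
AARS1: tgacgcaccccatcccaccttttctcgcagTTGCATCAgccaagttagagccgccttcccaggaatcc
NARS1: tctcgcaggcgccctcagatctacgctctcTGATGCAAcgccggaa
CHAC1: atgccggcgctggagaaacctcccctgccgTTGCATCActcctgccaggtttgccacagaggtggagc
These runs lie at TARS1 chr5:33440937-33440994 (plus strand), GARS1 chr7:30594815-30594882 (plus strand), IARS1 chr9:92293673-92293740 (minus strand), CARS1 chr11:3057394-3057455 (minus strand), MARS1 chr12:57488034-57488097 (plus strand), AARS1 chr16:70289656-70289723 (minus strand), NARS1 chr18:57621807-57621852 (minus strand) and CHAC1 chr15:40953232-40953299 (plus strand). In IARS1, CARS1 and MARS1 the first motif base lay 13, 2 and 4 bases before the start, in GARS1 33 before it, and in AARS1 and CHAC1 187 and 209 before it. In TARS1 and NARS1 it was base 3 and base 15 of the transcript. The other members with a match were ASNS, GOT1, JDP2 and CEBPG. A match describes letters in this window and shows no binding.

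Libraries held 8784815 to 14970876 reads assigned to genes (median 11926903), so that a count of 0 allows up to 0.341 CPM (counts scaled to TMM-adjusted library size) in the shallowest library. That limit, 3 counts, covers counting error only. All 7 B lineage markers and both mantle cell lymphoma markers, CCND1 and SOX11, were above a mean of 1 CPM in each line. Summed markers of T and NK cells, of myeloid cells and of stroma stayed at or below 11, 7.75 and 34.8 CPM in every library, against 3100 or more for B lineage markers. In bulk RNA, fewer cells that express a gene and less RNA per cell cannot be told apart.

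Most of the 42 genes were measured well, and a few were silent. Per transcript length, as RPKM in DMSO cells at 24 h, SHMT2, the mitochondrial enzyme that splits serine into glycine and a one-carbon unit, stood highest in each line with 615 ± 27.5 RPKM (SD, n = 3) in JEKO. In MINO it had 332 ± 13.5 and in UPN-1 314 ± 4.41 RPKM. ATF4 came after SHMT2 and MARS1 in JEKO, after SHMT2 and ATF5 in MINO and next to SHMT2 in UPN-1, at 140.2, 164.5 and 260.4 on the same scale. In JEKO, ATF4 (120.0 to 155) overlapped its neighbour SARS1 (130.0 to 142) in that order and also AARS1 (101 to 132). In MINO, ATF5 (135 to 288) overlapped ATF4 (156 to 175), with a lower limit below that of ATF4, so their order is not separated by the spread. PSAT1, the middle enzyme of serine synthesis, had 71.7 to 79.6 CPM in JEKO and 150.3 to 179 CPM in UPN-1 DMSO cells at 24 h, but 10 counts in all 12 MINO libraries together, 5 of which were at 0. STC2, a secreted glycoprotein, had 0 counts in all 12 MINO libraries. NUPR1, a small chromatin-bound stress factor, had 6 counts in the whole series, all in MINO. STBD1, a glycogen-binding protein, had 20, all in UPN-1, and shares 88.5% of its exonic length with the readthrough gene FAM47E-STBD1. After the filter on low counts, 40 members were tested in JEKO and in UPN-1 (all but NUPR1 and STBD1) and 38 in MINO (also without STC2 and PSAT1).

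The summed level of the 42 genes was lower in treated than in DMSO MINO cells at both times, and higher at 72 h than at 24 h in JEKO DMSO cells. The summed level of the 42 genes in MINO was 4946, 5157 and 4872 CPM in DMSO and 3784, 3749 and 3716 CPM in GS716054 cells at 24 h (replicates 1, 2 and 3). At 72 h it was 6772, 8733 and 7248 CPM against 3715, 4604 and 3475 CPM, that is 54.9%, 52.7% and 47.9% of the same-numbered DMSO library. In JEKO the sum went from 6914, 6949 and 6670 CPM at 24 h to 14770, 8810 and 14770 CPM at 72 h in DMSO cells. Replicate 2 of JEKO at 72 h was low in both arms, with 8810 CPM in DMSO and 6635 CPM in GS716054 cells, where replicate 1 had 14770 and 12630 CPM. In UPN-1 every library lay between 4829 and 6968 CPM. The sum is set largely by abundant genes such as SHMT2, so the gene-by-gene values follow.

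**Figure D1:**
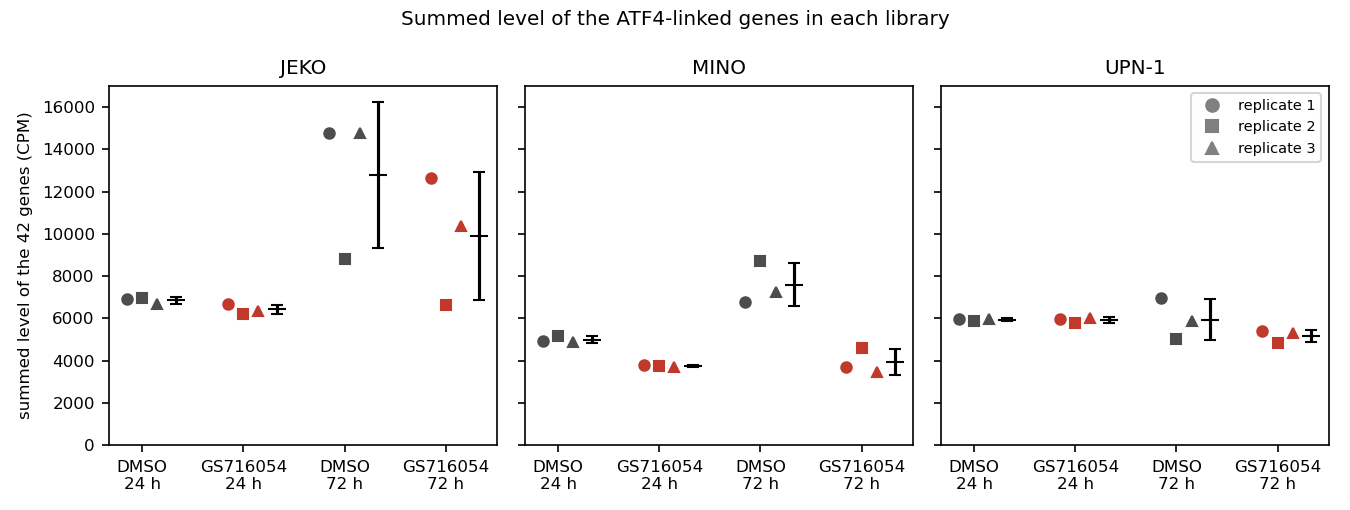
Summed CPM of the 42 genes (vertical axis, from 0) in each library of the 3 lines, by treatment and time on the horizontal axis; symbols are replicates, and the black bar beside them is the mean ± SD (n = 3). The MINO GS716054 libraries sit between 3475 and 4604 CPM, below all MINO DMSO libraries, and 2 of the 3 JEKO DMSO libraries at 72 h reach 14770 CPM.

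GS716054 lowered 7 of the 38 tested members in MINO at 24 h and 21 of 38 at 72 h, and raised none there (edgeR quasi-likelihood test, adjusted p under 0.05 over all genes tested). Of all 15028 genes tested in MINO, 0.952% were called lower and 1.44% higher at 24 h, and 2.05% and 3.51% at 72 h. The median log2 change of the members was -0.41 at 24 h and -0.91 at 72 h, where the median of all genes was 0.0051 and -0.026. The 3 treated libraries lay below all 3 DMSO libraries for 27 of 38 members at 24 h and 26 of 38 at 72 h, where 16.9% and 10.4% of all genes did. At 72 h all 38 members were lower in each of the 3 same-numbered pairs, as were 25.8% of all genes. The 7 genes lowered at 24 h (ATF4, GPT2, PYCR1, IARS1, LARS1, YARS1 and XPOT) were all among the 21 of 72 h.

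Same-numbered treated and DMSO libraries deviated together within a time, and a fit with a block for each replicate number within a time, added after the data were seen, called 19 members in MINO at 24 h (18 lower and DDIT4 higher) and 32 at 72 h, all lower. In that fit 7.36% of all genes were lower and 8.43% higher at 24 h, and 9.8% were lower at 72 h. The count at 24 h was 1 or 2 without any 1 of the 6 libraries compared: 1 without GS716054 replicate 2 and 2 without each of the other 5. DESeq2 called 14 members at 24 h. At 72 h the count was 6 when only the 6 libraries compared were fitted, and INHBE, GPT2, PYCR1, PHGDH, EIF4EBP1 and XPOT were the ones called there. Shares of all genes in the fits without 1 library, with DESeq2 and of the 6 libraries are not given here.

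No member was called in JEKO or UPN-1 under GS716054. The share of all genes called was 0.018% and 0.3% in JEKO at 24 h and 72 h, and 0.0262% and 0.334% in UPN-1, so few calls of any kind were made there. At an unadjusted p under 0.05 there were 0 and 7 members in JEKO at 24 h and 72 h, the 7 all lower, where 3.97% and 8.62% of all genes passed and 3.49% passed as lower at 72 h. In UPN-1 there were 1 (higher) and 3 (1 higher and 2 lower), where 3.78% and 7.41% of all genes passed, so the counts at 72 h in UPN-1 and at 24 h in both lines lay near or below the share of all genes. The median log2 change of the members at 72 h was -0.27 in JEKO and -0.23 in UPN-1, with 34 and 37 of 40 members below 0. Over all 16690 genes tested in JEKO the median was 0.0036, with 8263 genes below 0. With the block within time, 8 members were lower in JEKO and 11 in UPN-1 at 72 h, where 1.44% and 3.29% of all genes were. The 11 in UPN-1 were ATF4, ATF5, JDP2, CHAC1, PHGDH, GOT1, ALDH18A1, AARS1, GARS1, SARS1 and YARS1. DESeq2 called SHMT2 lower in JEKO at 72 h (-0.51, adjusted p = 0.0134) and 0 members in UPN-1 or in JEKO at 24 h. Without the low-count filter 4 members were lower in JEKO at 72 h (TRIB3, ATF5, CEBPB and DDIT3) and 1 in UPN-1 (CHAC1). Shares of all genes with DESeq2 and without the filter are not given here.

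Over time in DMSO, 26 of 40 members rose in JEKO and 1 fell, against 17.1% and 14.6% of all genes called higher and lower. In MINO 3 of 38 rose (SESN2, INHBE and GPT2), where 0.0865% of all genes did, and in UPN-1 1 of 40 rose (DDIT4), where 1.35% did. The median log2 change of the members was 1.17 (JEKO), 0.51 (MINO) and 0.049 (UPN-1), against 0.047, 0.043 and 0.02 over all genes. The comparison of times uses the same DMSO libraries as the comparison with GS716054, so a high DMSO level at 72 h enters both. The MINO count was 18 without the low-count filter, 14 with DESeq2 and 7 without DMSO 24 h replicate 2, and the UPN-1 count was 12 without DMSO 72 h replicate 3 and 0 without any 1 of the other 5 libraries. The shares of all genes given above belong to the main fits. Those of these alternative fits are not given here, so a general rise in calls cannot be told apart from one among the members.

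**Figure D2:**
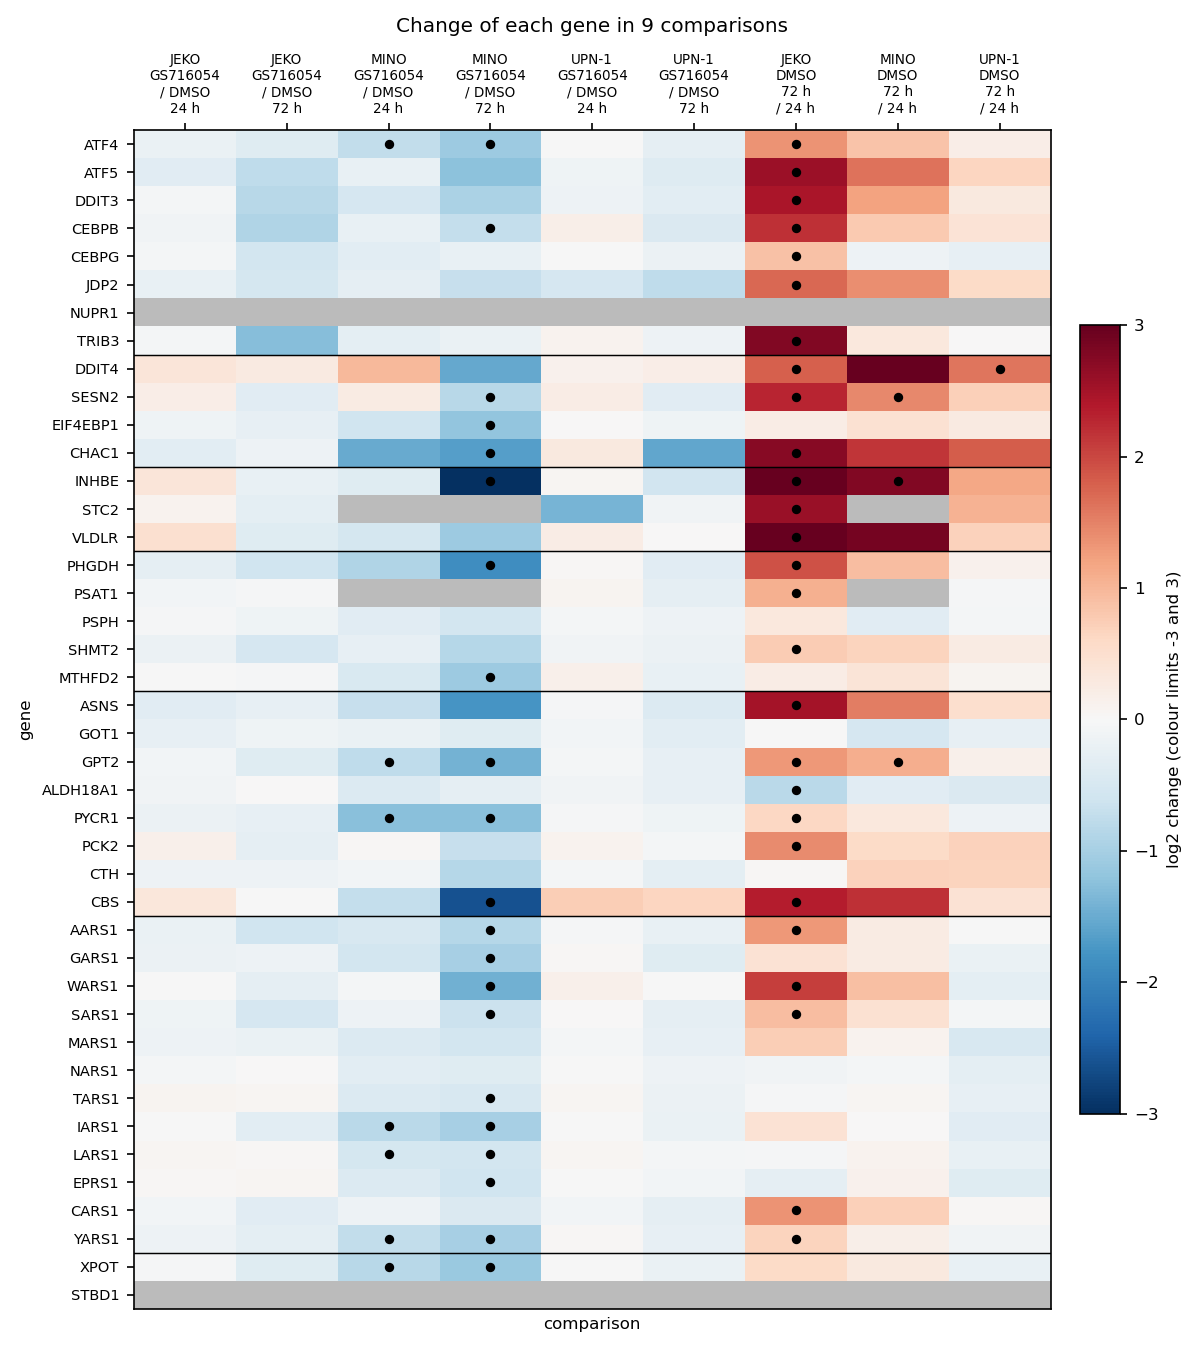
Log2 change of each gene (vertical axis, grouped by role) in the 9 comparisons (horizontal axis); blue is lower, red higher, with colours capped at -3 and 3, grey marks genes not tested, and dots mark calls. Dots fall in the MINO treatment columns on blue cells and mostly on red cells in the JEKO culture column, with ALDH18A1 the only gene called lower there; MINO and UPN-1 culture hold 3 and 1 dots.

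In UPN-1 at 72 h one DMSO library stood apart: CHAC1 measured 25.8, 3.6 and 3.82 CPM in DMSO and 5.18, 3.07 and 3.11 CPM in treated cells, and INHBE 10.1, 2.79 and 1.54 CPM and 4.56, 2.44 and 2.73 CPM. Replicate 1 of DMSO was the highest for both genes, and neither difference passed the test in the main edgeR fit (-1.55, SE 0.563, adjusted p = 0.451 for CHAC1 and -0.58, SE 0.5, adjusted p = 0.953 for INHBE). Without the low-count filter, edgeR called CHAC1 (-1.56, adjusted p = 4.27e-06). The CHAC1 change within pairs was -1.19 (SE 0.305, adjusted p = 0.019). The treatment effect at 72 h minus that at 24 h gave 0 called members in JEKO and in UPN-1 (0% of all genes in both) with the main edgeR fits and 0 with DESeq2, and 0 and 1 (lower) at an unadjusted p under 0.05, where 1.79% and 1.52% of all genes passed. Without the low-count filter, edgeR called TRIB3 in JEKO (-1.25, adjusted p = 0.00856) and CHAC1 in UPN-1 (-1.87, adjusted p = 0.0119) for this difference.

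Among the 8 regulators, ATF4 and CEBPB were lowered by GS716054 in MINO, and all 7 that were tested rose in JEKO with time. ATF4 (ENSG00000128272, chromosome 22, 39519695 to 39522683) measured 221, 248 and 231 CPM in MINO DMSO cells and 141, 125 and 154 CPM in treated cells at 24 h. At 72 h its levels were 357, 513 and 404 CPM and 213, 223 and 159.8 CPM. All 6 treated libraries lay below all DMSO libraries of their time, with log2 changes of -0.74 (SE 0.167, adjusted p = 0.0383) and -1.10 (SE 0.168, adjusted p = 0.00327). The call at 24 h did not hold without any single library of the 6 (adjusted p 0.0746 to 0.185) and in the fit of all 36 libraries (0.0703), and the call at 72 h was lost in the fit of the 6 libraries compared (0.0718). In JEKO, ATF4 went from 206, 219.5 and 171 CPM to 672, 301 and 545 CPM in DMSO cells, a rise of 1.35 (SE 0.29, adjusted p = 0.00461), with replicate 2 the lowest at 72 h. Treated JEKO cells had 198, 166 and 159.8 CPM at 24 h and 496, 233 and 446 CPM at 72 h and overlapped DMSO at both times. The levels in UPN-1 were 384, 389 and 336 CPM in DMSO and 355, 409.6 and 337 CPM in treated cells at 24 h. At 72 h they were 539, 335 and 400.0 CPM and 369, 313 and 369 CPM, a difference of -0.28 (SE 0.159, adjusted p = 0.809) that became -0.26 (SE 0.0742, adjusted p = 0.0391) with the block within time.

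CEBPB, a C/EBP partner of ATF4, measured 34.3, 36.4 and 47 CPM in MINO DMSO and 26.4, 20.6 and 25.2 CPM in treated cells at 72 h. The groups did not overlap, and the change was -0.71 (SE 0.151, adjusted p = 0.0181). The call was lost in the fit of all 36 libraries (0.24), and its adjusted p was 0.0843 without MINO DMSO 72 h replicate 3. In JEKO DMSO cells CEBPB rose from 36.5, 33.1 and 36.6 CPM to 239, 66.2 and 175 CPM, by 2.18 (SE 0.429, adjusted p = 0.00298). ATF5, a sister factor that is also controlled at translation, rose in JEKO from 106, 110.0 and 77.8 CPM to 595, 471 and 659 CPM, by 2.56 (SE 0.279, adjusted p = 0.000323). In MINO at 72 h ATF5 had 836, 1782 and 929 CPM in DMSO and 336, 929.7 and 241 CPM in treated cells, with replicate 2 high in both arms, so that the groups overlapped (-1.23, SE 0.487, adjusted p = 0.156). Compared within pairs, ATF5 was lower in MINO at 72 h (-1.40, SE 0.17, adjusted p = 0.0001). ATF5 exons overlap those of IL4I1 and NUP62 on the other strand over 22.1% of their length.

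DDIT3, or CHOP, a factor linked to cell death under lasting stress, rose in JEKO DMSO cells from 40.3, 45.8 and 33.3 CPM to 339.9, 114 and 205 CPM, by 2.46 (SE 0.366, adjusted p = 0.000885). Its exons overlap those of MARS1 and MBD6 on the other strand over 31.6% of their length, and the strand setting of the counting is not given in the sources used here. JDP2, a repressor of the same leucine zipper family, rose from 4.98, 7.6 and 7.21 CPM to 21.5, 19.1 and 25 CPM, by 1.72 (SE 0.249, adjusted p = 0.000812). TRIB3, a pseudokinase that feeds back on ATF4 signalling, had a median of 67.6 CPM at 24 h and 868, 109 and 533 CPM at 72 h, a rise of 2.77 (adjusted p = 0.00556) in which replicate 2 again stood low. CEBPG rose by 0.88 (adjusted p = 0.0251), and this adjusted p was 0.0512, 0.0735 and 0.0827 without JEKO DMSO 24 h replicates 1, 2 and 3, and 0.096 and 0.0658 without JEKO DMSO 72 h replicates 1 and 3. In treated JEKO cells at 72 h TRIB3 measured 399.5, 75.9 and 149.6 CPM, lower than the same-numbered DMSO library in each pair, with a log2 change of -1.27 (SE 0.586, adjusted p = 0.571) without the block and -1.16 (SE 0.19, adjusted p = 0.00828) with it. The block also gave lower DDIT3 (-0.81, SE 0.122, adjusted p = 0.0055), CEBPB (-0.90, SE 0.113, adjusted p = 0.00233), ATF5 and CEBPG in these cells.

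**Figure D3:**
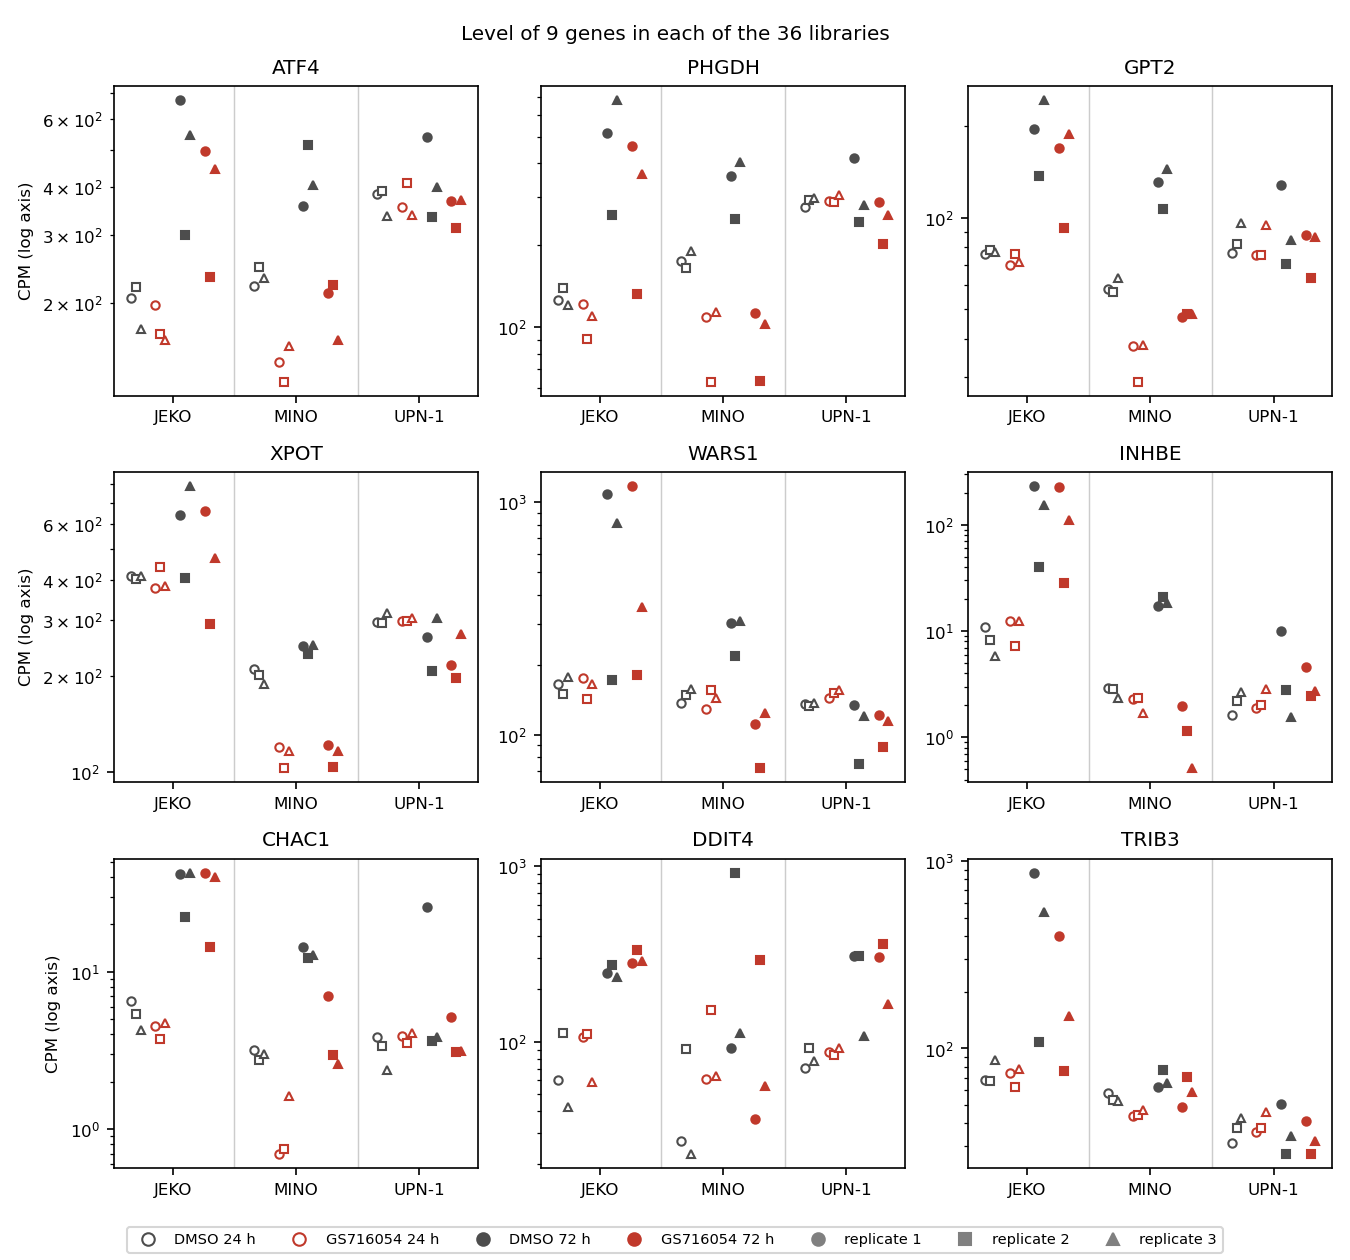
CPM on a log axis of 9 genes in each of the 36 libraries; open symbols are 24 h, filled symbols 72 h, grey DMSO and red GS716054, and shapes are replicates. In MINO the red points of GPT2, XPOT and INHBE at 72 h lie below all grey points of that time, and in JEKO at 72 h replicate 2 is the lowest of the 3 libraries of each arm for all genes plotted except DDIT4.

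The growth and redox brakes gave 3 of 4 genes lowered in MINO at 72 h and 3 of 4 raised in JEKO with time. EIF4EBP1 measured 51, 57.5 and 55.3 CPM in DMSO and 23.8, 20.7 and 27.1 CPM in GS716054 cells at 72 h. EIF4EBP1, which binds the cap-binding factor eIF4E when mTORC1 is inactive, changed by -1.19 (SE 0.174, adjusted p = 0.00226), with no overlap between the groups. SESN2 measured 36.5, 29.9 and 40.8 CPM in DMSO and 17.9, 21.8 and 20.3 CPM in GS716054 cells at 72 h. SESN2, a leucine-sensing inhibitor of mTORC1, changed by -0.84 (SE 0.15, adjusted p = 0.00741) in MINO, and was not called in the fit of all 36 libraries (0.135). CHAC1 measured 14.4, 12.1 and 12.7 CPM in DMSO and 7.02, 2.96 and 2.58 CPM in GS716054 cells at 72 h. CHAC1, which degrades glutathione, changed by -1.66 (SE 0.355, adjusted p = 0.018), and the adjusted p was 0.0637 and 0.0536 without MINO DMSO 72 h replicates 1 and 3, and 0.0635 without MINO GS716054 72 h replicate 3.

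In JEKO DMSO cells SESN2 rose from 20.2, 18.4 and 20.0 CPM to 129.9, 46.3 and 111 CPM, by 2.29 (SE 0.37, adjusted p = 0.00123). CHAC1 rose from 6.47, 5.38 and 4.29 CPM to 41.6, 22.4 and 42.5 CPM, by 2.72 (SE 0.368, adjusted p = 0.000692). SESN2 also rose in MINO DMSO cells, by 1.44 (SE 0.153, adjusted p = 0.0025), from 13.8, 12 and 13.9 CPM at 24 h. DDIT4, an inhibitor of mTORC1, lay on different sides of DMSO at the 2 times in MINO. It had 26.9, 91.1 and 22.8 CPM in DMSO and 61, 152 and 63.9 CPM in treated MINO cells at 24 h, higher in each pair. At 72 h DDIT4 had 91.9, 918 and 112 CPM and 36.2, 294 and 56.1 CPM, lower in each pair. Replicate 2 was the highest library in all 4 MINO groups, and neither difference was called in the main edgeR fit (0.97, SE 0.934, adjusted p = 0.637 and -1.54, SE 0.935, adjusted p = 0.364). Without the low-count filter, edgeR called both (0.97, adjusted p = 0.0163 and -1.55, adjusted p = 4.45e-06). It also called the difference between times (-2.53, adjusted p = 1.06e-06). Within pairs the changes were 1.12 (SE 0.155, adjusted p = 0.000464) and -1.33 (SE 0.151, adjusted p = 5.83e-05), and their difference was -2.45 (SE 0.217, adjusted p = 0.000114). With time in DMSO, DDIT4 rose in JEKO from 60.5, 112 and 42.5 CPM to 246, 272 and 235 CPM (1.80, SE 0.3, adjusted p = 0.00139) and in UPN-1 from 70.3, 92.1 and 77.2 CPM to 309, 309 and 108 CPM (1.60, SE 0.321, adjusted p = 0.0355). The UPN-1 call was lost without any 1 of 5 of the 6 libraries, all but DMSO 72 h replicate 3, with an adjusted p of 0.156, 0.109 and 0.147 without UPN-1 DMSO 24 h replicates 1, 2 and 3, and 0.08 and 0.16 without UPN-1 DMSO 72 h replicates 1 and 2. In the fit of all 36 libraries it was 0.186.

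INHBE gave the largest fall in MINO among the members. INHBE (ENSG00000139269, chromosome 12, 57452323 to 57459280) encodes the subunit of activin E, a secreted factor of the TGF-beta family. It measured 2.94, 2.84 and 2.35 CPM in DMSO and 2.27, 2.34 and 1.71 CPM in treated MINO cells at 24 h, a difference that was not called (-0.36, SE 0.329, adjusted p = 0.614). At 72 h it measured 17.1, 20.9 and 18.1 CPM in DMSO and 1.98, 1.15 and 0.516 CPM in treated cells. The DMSO level had risen by 2.78 (SE 0.308, adjusted p = 0.0025) from 24 h, while the treated libraries of 72 h had at most 1.98 CPM, and the treatment difference was -3.97 (SE 0.339, adjusted p = 9.05e-05). The difference between the effects at 72 h and 24 h was -3.61 (SE 0.471, adjusted p = 0.0277). INHBE was the only member called in that comparison by the main edgeR fit, where 0.0133% of all genes were called lower. This call was lost without 9 of the 12 libraries in turn, with adjusted p values of 0.117, 0.127 and 0.162 without MINO DMSO 24 h replicates 1, 2 and 3, 0.145, 0.156 and 0.069 without MINO GS716054 24 h replicates 1, 2 and 3, 0.0806 and 0.106 without MINO DMSO 72 h replicates 1 and 3, and 0.0577 without MINO GS716054 72 h replicate 2. In the fit of all 36 libraries it was 0.425. With the block within time 6 members were lower at 72 h than at 24 h in this sense, INHBE, DDIT4, WARS1, SESN2, ATF5 and PHGDH, among 0.492% of all genes.

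In JEKO DMSO cells INHBE went from 10.8, 8.29 and 5.84 CPM to 229, 40.2 and 152 CPM, by 4.08 (SE 0.694, adjusted p = 0.00155), the largest rise of a member. Replicate 2 had the lowest level of the 3 at 72 h. STC2 rose from 9.26, 9.91 and 6.76 CPM to 56, 31.2 and 67.4 CPM, by 2.58 (SE 0.359, adjusted p = 0.000766). VLDLR, a lipoprotein receptor, was low at 24 h, with 1.09, 0.512 and 0.365 CPM, and had 6.04, 4.27 and 10 CPM at 72 h (3.36, SE 0.667, adjusted p = 0.00305). In MINO, VLDLR had 9.54, 25.4 and 10.5 CPM in DMSO and 2.85, 16.9 and 1.38 CPM in treated cells at 72 h, with replicate 2 high in both arms and the groups overlapping (-1.08, SE 0.696, adjusted p = 0.394). On chromosome 12, INHBE has SHMT2, MARS1 and DDIT3 as neighbours among the members, all between 57229573 and 57521737. Other genes of that stretch are not described here. In MINO at 72 h those 3 members were lower in each same-numbered pair, as were all 38 tested members. The 3 had adjusted p values of 0.0829, 0.175 and 0.0868 in the edgeR fit of the line. DESeq2 called SHMT2 (-0.86, adjusted p = 0.0228) and DDIT3 (-0.97, adjusted p = 0.0333) lower there. The edgeR fit without the low-count filter called all 3 lower (adjusted p = 0.00112, 0.048 and 0.0023).

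Of the serine and mitochondrial one-carbon genes, PHGDH and MTHFD2 fell in treated MINO cells at 72 h (2 of 4 tested), and PHGDH, PSAT1 and SHMT2 rose in JEKO with time (3 of 5). PHGDH (ENSG00000092621, chromosome 1, 119648411 to 119744218) catalyses the step that commits a glycolytic intermediate to serine. It measured 176, 165 and 190.4 CPM in DMSO and 109, 63.1 and 113 CPM in treated MINO cells at 24 h. At 72 h the levels were 359.8, 249 and 402 CPM and 112, 63.6 and 103 CPM. The groups were apart at both times, with replicate 2 the lowest treated library, and the changes were -0.89 (SE 0.256, adjusted p = 0.0874) and -1.86 (SE 0.261, adjusted p = 0.0019). The first became a call with the block within time (-0.94, SE 0.138, adjusted p = 0.000688). MTHFD2 measured 316, 269 and 311 CPM in DMSO and 163, 101 and 154 CPM in GS716054 cells at 72 h. MTHFD2, a mitochondrial folate enzyme, changed by -1.10 (SE 0.165, adjusted p = 0.0028) with no overlap.

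In JEKO DMSO cells PHGDH rose from 126, 139 and 120.5 CPM to 515, 258 and 681 CPM, by 1.92 (SE 0.385, adjusted p = 0.00328). SHMT2 rose by 0.76 (adjusted p = 0.00604). PSAT1 rose by 1.06 (adjusted p = 0.0406), an adjusted p that was 0.0957, 0.106 and 0.0948 without JEKO DMSO 24 h replicates 1, 2 and 3, and 0.083 and 0.151 without JEKO DMSO 72 h replicates 1 and 3. Treated JEKO cells at 72 h had 462, 132 and 365 CPM of PHGDH, lower in each pair, and the change was -0.60 (SE 0.372, adjusted p = 0.761) without the block and -0.68 (SE 0.162, adjusted p = 0.0453) with it. In UPN-1 at 72 h PHGDH measured 418, 244 and 279.9 CPM in DMSO and 287, 203 and 257 CPM in treated cells, overlapping groups with -0.31 (SE 0.0683, adjusted p = 0.00661) within pairs. Over the 36 libraries SHMT2 ranged from 462 to 2520 CPM. PSPH, the last step of serine synthesis, ranged from 27.6 to 63.7 CPM over the series and was called in none of the 9 comparisons within a line by the edgeR fits per line described above. Its level in treated MINO cells at 72 h was called lower with DESeq2 (-0.57, adjusted p = 0.0171), without the low-count filter (-0.56, adjusted p = 0.0403), in the fit of all 36 libraries (-0.54, adjusted p = 0.0155), with a minimum count of 50 (adjusted p = 0.0494), with the block within time (-0.55, adjusted p = 0.00274) and without MINO DMSO 72 h replicate 2 (-0.73, adjusted p = 0.00985). Over time in JEKO it was called higher without DMSO 72 h replicate 2 (0.48, adjusted p = 0.0291).

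Among the 8 other amino acid enzymes, PYCR1, GPT2 and CBS fell in treated MINO cells. PYCR1 (ENSG00000183010, chromosome 17, 81932384 to 81942412) makes proline in mitochondria. Its levels were 81.5, 88.4 and 86.5 CPM in DMSO and 39.9, 30.4 and 36.6 CPM in treated cells at 24 h. At 72 h they were 99.9, 99.7 and 119 CPM and 46, 34.6 and 52.2 CPM. PYCR1 was already at its full difference at 24 h, -1.26 (SE 0.161, adjusted p = 0.00414), against -1.26 (SE 0.16, adjusted p = 0.00127) at 72 h, and stayed called without any 1 library at both times. Its exons overlap other genes on the opposite strand over 15.6% of their length and MYADML2 on its own strand over 14.1%. GPT2, the mitochondrial alanine aminotransferase, measured 58.1, 57.2 and 63.5 CPM in DMSO and 37.8, 29 and 38.2 CPM in treated cells at 24 h. At 72 h GPT2 measured 131, 107 and 145 CPM and 47.2, 48.4 and 48.4 CPM, and the changes were -0.77 (SE 0.144, adjusted p = 0.0198) and -1.41 (SE 0.144, adjusted p = 0.000336). The first did not hold without any single library of the 6 (adjusted p 0.0515 to 0.118). GPT2 also rose in MINO DMSO cells with time by 1.10 (SE 0.143, adjusted p = 0.00896), an adjusted p that was 0.104 and 0.0623 without MINO DMSO 24 h replicates 1 and 3, and 0.0618 and 0.0691 without MINO DMSO 72 h replicates 1 and 3.

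CBS, which joins serine to homocysteine, was scarce. CBS measured 8.25, 3.91 and 9.74 CPM in DMSO and 1.32, 0.658 and 1.64 CPM in GS716054 cells at 72 h. The groups did not overlap, and the change was -2.61 (SE 0.493, adjusted p = 0.00949). CBS has a near-identical copy, CBSL, which held 0 to 7 counts per library against 4 to 194 of CBS, and reads that fit both may be missing from either. With time in JEKO DMSO cells, CBS rose from 3.28, 1.62 and 2.1 CPM to 14.4, 6.53 and 14.8 CPM (2.36, SE 0.43, adjusted p = 0.0021) and GPT2 from 76.2, 78.7 and 77.2 CPM to 196, 137 and 244 CPM (1.31, SE 0.237, adjusted p = 0.00201). PCK2, the mitochondrial PEP carboxykinase, rose by 1.41 (adjusted p = 0.00682) and PYCR1 by 0.62 (adjusted p = 0.0124), the latter 0.0534 without JEKO DMSO 24 h replicate 3. ASNS, the asparagine synthetase, rose by 2.49 (adjusted p = 0.00762) with 3 to 88 counts per library over the series, and 49.3% of its exonic length is shared with a second gene model on the same strand, so its level is uncertain. ALDH18A1, which makes the proline precursor that PYCR1 reduces, was the only member that fell, from 197, 201 and 223 CPM to 111, 127 and 116 CPM (-0.81, SE 0.125, adjusted p = 0.00099). GOT1, the cytosolic aspartate aminotransferase, and CTH, which makes cysteine from the product of CBS, were called in none of the 9 comparisons by those fits. GOT1 was lower in treated UPN-1 cells at 72 h with the block within time (-0.31, adjusted p = 0.0102), and CTH was higher over time in UPN-1 without DMSO 72 h replicate 3 (0.82, adjusted p = 0.0418). Over the 36 libraries GOT1 ranged from 13.5 to 106 CPM, CTH from 0.768 to 10.5 CPM and PCK2 from 15.5 to 106 CPM.

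The tRNA ligases load each amino acid onto its tRNA. Of the 12, GS716054 lowered 3 in MINO at 24 h (IARS1, LARS1 and YARS1) and 9 at 72 h, all but MARS1, NARS1 and CARS1 (edgeR, fit of MINO). The changes of all 12 at 72 h ran from -1.43 to -0.37, with a median of -0.62. YARS1 measured 254, 215 and 258 CPM in DMSO and 138, 104 and 123 CPM in GS716054 cells at 72 h. At 24 h YARS1 had 215, 205 and 224 CPM and 137, 116 and 131 CPM, and its changes were -0.74 (SE 0.135, adjusted p = 0.0181), then -1.0 (SE 0.136, adjusted p = 0.00174). None of the calls at 24 h held when any single library of the 6 was left out, and adjusted p was 0.0591 to 0.127 for YARS1, 0.0769 to 0.135 for IARS1 and 0.0783 to 0.167 for LARS1.

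WARS1, the tryptophan ligase, which interferon gamma also induces in many cells, had the largest change of the ligases at 72 h. It showed 136, 148 and 157 CPM in DMSO and 128, 155 and 144 CPM in treated cells at 24 h, overlapping groups (-0.05, SE 0.195, adjusted p = 0.924). At 72 h WARS1 showed 303, 218 and 309.5 CPM and 112, 71.9 and 124 CPM (-1.43, SE 0.198, adjusted p = 0.00179). AARS1 measured 424, 329.9 and 456 CPM in DMSO and 246, 203 and 224 CPM in GS716054 cells at 72 h. SARS1 measured 195, 198 and 199 CPM in DMSO and 128, 127 and 124 CPM in GS716054 cells at 72 h. The changes were -0.85 (SE 0.154, adjusted p = 0.0075) for AARS1 and -0.65 (SE 0.1, adjusted p = 0.00359) for SARS1, and treated and DMSO libraries of both were apart. The others called at 72 h were IARS1 (-1.0, adjusted p = 0.00394), GARS1 (-0.99, adjusted p = 0.0075), EPRS1 (-0.60, adjusted p = 0.0276), LARS1 (-0.55, adjusted p = 0.0162) and TARS1 (-0.49, adjusted p = 0.026). For the last 3 the adjusted p crossed the threshold without single libraries: EPRS1 reached 0.0544 without MINO DMSO 72 h replicate 1, and 0.0795 and 0.0709 without MINO GS716054 72 h replicates 1 and 3, LARS1 reached 0.054 without MINO DMSO 72 h replicate 3, and TARS1 reached 0.0696 and 0.0846 without MINO DMSO 72 h replicates 1 and 3, and 0.0505 and 0.0719 without MINO GS716054 72 h replicates 1 and 3. TARS1 was also not called without the low-count filter (0.0817). None of the 9 ligase calls at 72 h held in the fit of the 6 libraries compared, where adjusted p ran from 0.0558 for WARS1 to 0.195 for TARS1.

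In JEKO DMSO cells 5 ligases rose with time, AARS1, WARS1, SARS1, CARS1 and YARS1. AARS1 went from 452, 416 and 347 CPM to 1102, 757 and 1114 CPM (1.29, SE 0.24, adjusted p = 0.00224). CARS1 went from 81.6, 81.3 and 68.5 CPM to 221, 144 and 219.9 CPM (1.34, SE 0.254, adjusted p = 0.00254), and SARS1 from 268, 271 and 249 CPM to 576, 318 and 604 CPM (0.93, SE 0.257, adjusted p = 0.0155). WARS1 had 165, 149.7 and 176 CPM at 24 h and 1087, 172 and 812 CPM at 72 h, with replicate 2 inside the range of 24 h, and was the only called member whose groups overlapped (2.08, SE 0.61, adjusted p = 0.0201). YARS1 rose from 191, 210.3 and 174 CPM to 343, 230.3 and 344 CPM (0.67, SE 0.198, adjusted p = 0.0205). Single libraries decided some of these calls: SARS1 reached 0.0626 without JEKO DMSO 24 h replicate 3, and 0.052 without JEKO DMSO 72 h replicate 3, WARS1 reached 0.058, 0.0676 and 0.0655 without JEKO DMSO 24 h replicates 1, 2 and 3, and 0.0794 without JEKO DMSO 72 h replicate 1, and YARS1 reached 0.0558 and 0.0826 without JEKO DMSO 24 h replicates 1 and 3, and 0.0619 and 0.0601 without JEKO DMSO 72 h replicates 1 and 3. With both JEKO 72 h replicate 2 libraries left out, 32 members were called over time in place of 27. The share of all genes called in that fit is not given here, so this count does not show a change particular to the members. MARS1 and NARS1 were called in none of the 9 comparisons by the edgeR fits per line. Other settings did call them in treated MINO cells at 72 h: the block within time called both (-0.55, adjusted p = 0.00389 for MARS1 and -0.37, adjusted p = 0.0212 for NARS1), leaving out MINO DMSO 72 h replicate 2 called both (0.0259 and 0.0454), DESeq2 called NARS1 (-0.38, adjusted p = 0.0199), and the fit without the low-count filter called MARS1 (-0.56, adjusted p = 0.048). At 24 h in MINO the block within time called MARS1 (-0.42, adjusted p = 0.0196), and the fit of the 6 libraries compared called both. Over time MARS1 was called without the low-count filter in JEKO (0.74, adjusted p = 0.00389) and in UPN-1 (-0.47, adjusted p = 0.0253), and without DMSO 72 h replicate 2 in JEKO (0.0279) or replicate 3 in UPN-1 (0.039). Over the 36 libraries EPRS1 ranged from 144 to 322 CPM, GARS1 from 111 to 449 CPM, TARS1 from 110.0 to 252 CPM and NARS1 from 71.3 to 257 CPM.

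XPOT (ENSG00000184575, chromosome 12, 64404392 to 64451125) encodes exportin-t, which carries tRNAs out of the nucleus. It measured 209.8, 201 and 188 CPM in DMSO and 119, 103 and 116 CPM in treated MINO cells at 24 h. At 72 h XPOT measured 249, 235 and 249.6 CPM and 122, 104 and 116 CPM. The treated libraries of both times, 103 to 122 CPM, lay well below the DMSO libraries, and the changes were -0.82 (SE 0.117, adjusted p = 0.00572) and -1.11 (SE 0.117, adjusted p = 0.000373). The first was 0.0538 without MINO GS716054 24 h replicate 2. In JEKO and UPN-1 treated and DMSO libraries overlapped at both times.

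**Figure D4:**
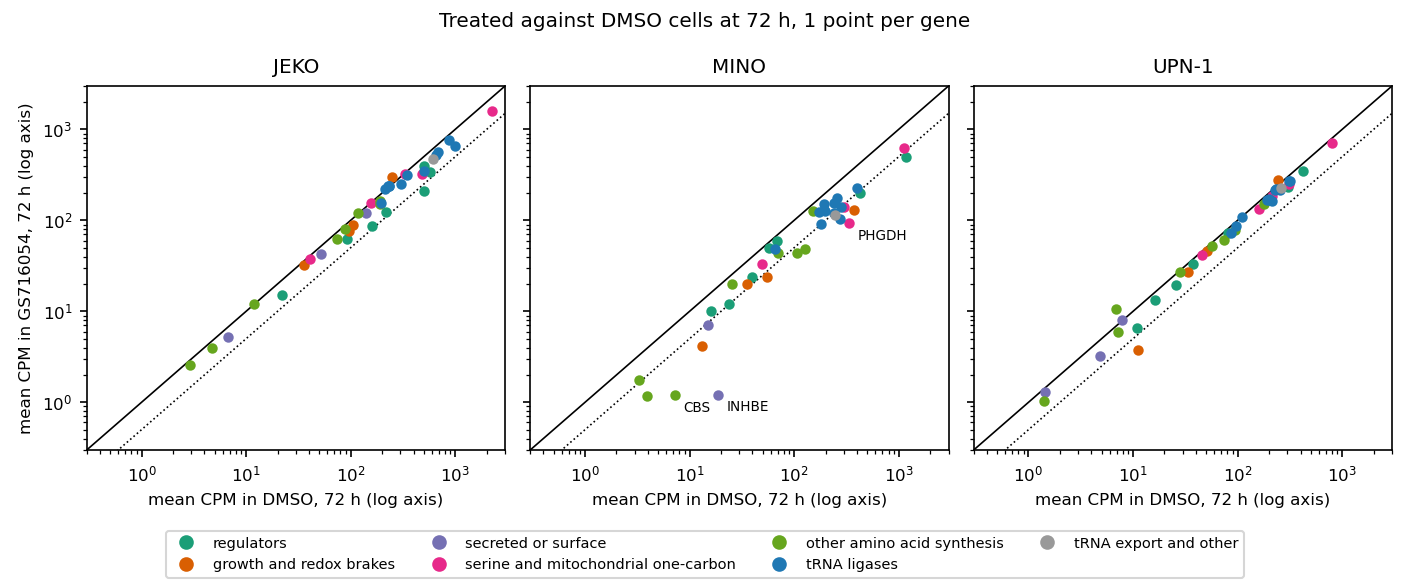
Mean CPM of each gene in GS716054 cells against DMSO cells at 72 h, both on log axes, in the 3 lines; colours are roles, the solid line marks equal levels and the dotted line a treated level of 50% of DMSO, and genes with a mean under 0.3 CPM in either group are left out. In MINO all 38 genes plotted lie below the solid line and 16 below the dotted one, in JEKO 33 of 40 and 1, in UPN-1 37 of 40 and 1.

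Whether the treatment effect itself differed among the lines was tested in a fit of all 36 libraries with 40 members. The test of equal effects called PYCR1 at 24 h (0.106% of all genes) and INHBE, PYCR1 and CBS at 72 h (1.01%). The effect in MINO minus the mean effect of JEKO and UPN-1 was lower for PYCR1 and LARS1 at 24 h and for INHBE, PHGDH, MTHFD2, GPT2, PYCR1, CBS and LARS1 at 72 h, against 0.428% and 0.84% of all genes called lower. For PYCR1 this difference was -1.14 (SE 0.197, adjusted p = 0.0033), then -1.05 (SE 0.195, adjusted p = 0.00328). For CBS it was -2.91 (SE 0.53, adjusted p = 0.00286). With the block within time the test of equal effects called 11 and 22 members at 24 h and 72 h (5.74% and 9.78% of all genes). For MINO against the others it then called 12 lower at 24 h (4.34% of all genes), DDIT4 higher (4.69%), and 23 lower at 72 h (5.72%). ATF4 was among the lower members at both times (-0.63, SE 0.139, adjusted p = 0.00495; then -0.76, SE 0.138, adjusted p = 0.000633) and was not called in the edgeR fit without the block (0.371 and 0.164), except at 72 h without the low-count filter (-0.76, adjusted p = 0.0363). The count among lines at 72 h was 1 without MINO DMSO replicate 3 or GS716054 replicate 2, 5 without JEKO DMSO replicate 3 or MINO DMSO replicate 2, and 6 without JEKO GS716054 replicate 2 or UPN-1 DMSO replicate 1. At 24 h it was 0 without replicate 2 of MINO DMSO or of MINO GS716054. For MINO against the mean of the others it was 1 at 24 h without any 1 of the 18 libraries, and at 72 h it was 3 without MINO DMSO replicate 1 or 3 and 4 without MINO GS716054 replicate 3. Shares of all genes in these fits without 1 library are not given here. The contrast of MINO with the other lines was chosen with earlier results of these data known.

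Neighbouring parts of the pathway were read from 7 further lists with the same edgeR fits. Of all genes, 0.952% and 2.05% were called lower in MINO at 24 h and 72 h, and in JEKO over time 17.1% were called higher and 14.6% lower. Of 19 other ATF4 response genes, mostly amino acid transporters and stress factors, 16 were tested in MINO and 5 fell at 24 h and 8 at 72 h. SLC6A9, a glycine transporter, changed by -2.56 (adjusted p = 0.000436) there and SLC43A1, a transporter of large neutral amino acids, by -1.71 (adjusted p = 0.000943). In JEKO DMSO cells 9 of 18 rose with time and 0 fell, among them ADM2 (2.86, adjusted p = 0.000632) and VEGFA, a growth factor for blood vessels (2.65, adjusted p = 0.000923). The 11 other cytosolic tRNA ligases and scaffold proteins gave 0 calls in MINO at 72 h, with a median of -0.20, where 9 of the 12 member ligases fell. Over time in JEKO, 7 of these 11 fell and 0 rose, RARS1 by -1.07 (adjusted p = 0.000571) and FARSB by -0.97 (adjusted p = 0.000766). Of 17 mitochondrial tRNA ligases VARS2 fell in MINO at 24 h and 72 h, and 8 fell in JEKO over time, with EARS2 at -1.20 (adjusted p = 0.000687) and MARS2 at -0.87 (adjusted p = 0.00164).

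Of the 13 genes for eIF2 kinases, the eIF2 phosphatase and eIF2B, GCN1, an activator of the kinase GCN2, fell in MINO at 72 h, and over time in JEKO 1 rose and 4 fell. EIF2S1, the eIF2 subunit that the kinases phosphorylate, changed by -1.15 (adjusted p = 0.000692) and EIF2B2 by -0.99 (adjusted p = 0.0021). PPP1R15A, an ATF4 and CHOP target that brings the phosphatase to eIF2, was the one that rose (2.27, adjusted p = 0.00332). Among 17 genes of the unfolded protein response of the endoplasmic reticulum, EDEM1 fell in MINO at 72 h, and over time in JEKO 4 rose and 1 fell, with EDEM1 at 1.16 (adjusted p = 0.00566) and CALR at -0.70 (adjusted p = 0.00624). The mitochondrial chaperones and proteases gave 1 fall of 8 in MINO at 72 h (LONP1), and 1 rise and 4 falls in JEKO, with HSPD1 at -1.19 (adjusted p = 0.000942) and HSPE1 at -1.44 (adjusted p = 0.00101). Of the other serine, glycine and folate genes MTHFD1L fell in MINO at 72 h, out of 10 tested, and in JEKO 2 of 9 rose and 2 fell, with MTHFD1 at -1.21 (adjusted p = 0.00256) and SLC25A32 at -0.80 (adjusted p = 0.00265). In the other comparisons, treated JEKO and UPN-1 cells had 0 calls in these lists at either time. With time in MINO DMSO cells SLC6A9 and EDEM1 rose. In UPN-1 SLC7A3, TNFRSF10B, VEGFA and SFXN3 rose and HSPE1 fell. SLC6A9, SLC43A1, PPP1R15A and the list genes given without values were named after their values were seen. For the genes of the unfolded protein response and those of serine, glycine and folate, the counts in JEKO lay near the shares of all genes. The lists were written with earlier results of these data known, and these counts describe them without a test of the list.

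The promoter motif shown above was compared with the calls. In MINO at 72 h 5 of the 12 members with the motif fell, with a median of -0.62, and 10 of the 18 tested without it in the searched window, with a median of -1.02. In JEKO over time 6 of 12 with it and 15 of 20 tested without it rose. Of the 7 ligases printed, AARS1, GARS1, IARS1 and TARS1 fell in MINO at 72 h, and CARS1, MARS1 and NARS1 were not called by edgeR (adjusted p = 0.0856, 0.175 and 0.0935). DESeq2 called CARS1 (-0.43, adjusted p = 0.0376) and NARS1 lower there as well.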

How the data were processed

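Gene-level read counts were deposited by the authors as whole numbers per Ensembl gene ID, with 5 summary lines; the submitters' processing notes name HISAT2 2.2.1, HTSeq 0.13.5 and GRCh38 without saying how each was used. The annotation release and strand setting are not given in the sources used here. Exons of 15 members overlap other genes on the opposite strand, so their counts may hold reads of those genes if strand was ignored. The largest overlaps were 31.6% of exonic length in DDIT3, 22.1% in ATF5, 15.6% in PYCR1 and 14.1% in MTHFD2. CEBPB had 12.6%, MARS1 12.4% and WARS1 10.6%. Reads that the counting assigned to no feature (43.2% to 45.9% of a library) were left out. Symbols, exon overlaps and coordinates came from GENCODE 44, which held 57532 of the 58302 IDs, and promoters from RefSeq. Counts were analysed with edgeR 4.0.16 (quasi-likelihood test, TMM, filterByExpr with a minimum count of 10) in R 4.3.3, in 1 fit per line (12 libraries) or over 36 libraries for differences among lines. The threshold was an adjusted p under 0.05, by Benjamini-Hochberg across every gene of the fit. DESeq2 1.42.0, other filters, fits of other libraries, replicate blocks and leaving out each library were the alternatives. The test was tried on counts simulated from MINO means, with each library drawn independently. That setting lacks the shared deviations of same-numbered libraries, so it does not cover them.

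Same-numbered DMSO and GS716054 libraries of a time were correlated in their deviations from the group means above 0.1 in 6 of 6 pairs in MINO, 6 of 6 in UPN-1 and 5 of 6 in JEKO, where 1 pair at 24 h had 0.055. Between times this held for 3, 6 and 7 of 12 pairs in JEKO, MINO and UPN-1. The numbers were therefore taken to pair treated and DMSO libraries, except in JEKO at 24 h, and not to pair times. The median correlation of same-numbered libraries between times was 0.046, 0.096 and 0.14 in JEKO, MINO and UPN-1. For different numbers it was -0.0515, -0.0835 and -0.073. A weaker pairing between times is therefore not excluded. The fits of all 36 libraries with the block within time still held a block for each JEKO pair at 24 h. Members, lists and contrasts were chosen with earlier results of these data known. Values in every library are given for ATF4 and for the 23 called members with the smallest adjusted p over the 9 comparisons within a line; of each further list, up to 2 genes with the smallest adjusted p were named, and one result of these lists is not reported here.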

Additional observations from a re-analysis of the deposited data

Results flagged for a closer look

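Some members changed with GS716054 to a different extent in MINO than in the other lines, or at 72 h than at 24 h, by edgeR tests of the difference itself. The effect differed among the 3 lines for PYCR1 at 24 h (adjusted p = 0.0148) and at 72 h (0.0124), for INHBE at 72 h (0.0342) and for CBS at 72 h (0.00869). As MINO minus the mean of JEKO and UPN-1, the log2 differences at 24 h were PYCR1 -1.14 (adjusted p = 0.0033) and LARS1 -0.57 (adjusted p = 0.047). At 72 h they were INHBE -3.56 (adjusted p = 0.0115), PHGDH -1.37 (adjusted p = 0.049), MTHFD2 -0.96 (adjusted p = 0.0202), GPT2 -1.08 (adjusted p = 0.0203), PYCR1 -1.05 (adjusted p = 0.00328), CBS -2.91 (adjusted p = 0.00286) and LARS1 -0.52 (adjusted p = 0.0459). In MINO the 3 treated libraries lay below the 3 DMSO libraries of their time for each of these genes and times. Within MINO, the INHBE effect at 72 h minus that at 24 h was -3.61 (adjusted p = 0.0277).

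The LARS1 difference at 24 h was not called without any 1 of the 18 libraries of that time (adjusted p 0.054 to 0.177), and at 72 h it was lost without 14 of 18, with 0.0535 and 0.0688 without JEKO DMSO 72 h replicates 1 and 2, 0.068 and 0.0575 without JEKO GS716054 72 h replicates 1 and 3, 0.0756, 0.0683 and 0.0912 without MINO DMSO 72 h replicates 1, 2 and 3, 0.081, 0.115 and 0.0516 without MINO GS716054 72 h replicates 1, 2 and 3, 0.0819 and 0.0735 without UPN-1 DMSO 72 h replicates 1 and 2, and 0.0532 and 0.0848 without UPN-1 GS716054 72 h replicates 1 and 3. PHGDH was lost without 12 of 18, with 0.0535 and 0.0618 without JEKO DMSO 72 h replicates 1 and 2, 0.0808 and 0.0766 without JEKO GS716054 72 h replicates 1 and 3, 0.116 and 0.139 without MINO DMSO 72 h replicates 1 and 3, 0.135 and 0.0775 without MINO GS716054 72 h replicates 2 and 3, 0.0756 and 0.0645 without UPN-1 DMSO 72 h replicates 2 and 3, and 0.0742 and 0.0737 without UPN-1 GS716054 72 h replicates 1 and 3. MTHFD2 was 0.0598 and 0.0522 without MINO DMSO 72 h replicates 1 and 3, and 0.0773 without MINO GS716054 72 h replicate 2, GPT2 was 0.0531 and 0.072 without MINO DMSO 72 h replicates 1 and 3, and INHBE was 0.0535 without MINO GS716054 72 h replicate 3. PYCR1 at both times and CBS stayed called without any 1 library in the comparison with the mean of JEKO and UPN-1. In the test of equal effects at 24 h, no member was called without MINO DMSO 24 h replicate 2 or without MINO GS716054 24 h replicate 2.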

How the results depend on the processing

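The number of called members changed with the block, the filter and the libraries fitted. Shares of all genes called are given above only for the main fits and the block within time. The other counts below have no such share beside them, so they do not show a change particular to the members. With the replicate block within time (added after seeing the data) the number of members called was 8 for treated JEKO cells at 72 h, 19 and 32 for MINO at 24 h and 72 h, 11 for UPN-1 at 72 h, 6 for the MINO difference between times, 11 and 22 for the difference among lines at 24 h and 72 h, and 13 and 23 for MINO against the mean of the other lines. With 1 replicate block per line over both times it was 13 in MINO at 24 h, 17 and 6 over time in MINO and UPN-1 DMSO cells, 8 for the difference among lines at 72 h and 13 for MINO against the others at 72 h. The numbers were not taken to pair DMSO libraries between times in any line, though a weaker pairing is not excluded. For culture time that block is therefore given only here. Without the low-count filter it was 4 in JEKO at 72 h, 1 in UPN-1 at 72 h, 18 and 7 over time in MINO and UPN-1, 1, 3 and 1 for the difference between times in JEKO, MINO and UPN-1, 2 and 11 among lines, and 4 and 11 for MINO against the others. A minimum count of 50 gave 5 over time in MINO. DESeq2 gave 1 for JEKO at 72 h, 14 for MINO at 24 h, 14 over time in MINO, 4 for the MINO difference between times, 2 and 7 among lines, and 11 for MINO against the others at 72 h. Fitting all 36 libraries gave 11 and 0 over time in MINO and UPN-1 and 0 for the MINO difference between times, and fitting the 6 libraries compared gave 19 and 6 for treated MINO cells, and 0 over time in UPN-1. Leaving out each library in turn gave 1 to 2 in MINO at 24 h, 2 to 7 and 0 to 12 over time in MINO and UPN-1, 0 to 1 for the MINO difference between times, 0 to 1 and 1 to 6 among lines, and 1 and 3 to 9 for MINO against the others. The other alternatives stayed within 1.5 times the main counts, and for JEKO over time all of them did (21 to 32). No call changed direction under any of them. The causes of these differences were not tested. CBS and INHBE lay within a few reads of the limit of 3 counts in some treated MINO libraries, so counting error weighs there.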
